A study of Rattus norvegicus with 8 samples.

Results

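The 6 genes described here belong to the Cyp2c subfamily of cytochrome P450 genes. They were taken by name (Cyp2c24, Cyp2c11, Cyp2c7, Cyp2c23, LOC100361492 and LOC100361547) from the 2462 genes of the authors' deposited table, and all 6 were found. No other gene of the authors' deposited table carried a Cyp2c name. The members were chosen by their measured fold changes and group FPKM in this same comparison, so their values are a description and carry no new test. The livers came from wild-type Fischer 344 (F344) rats, an inbred strain, aged 1 year. A group of 4 rats was fed an amino acid-defined diet with enough choline (CSAA), the healthy control diet, and 4 were fed the same kind of diet lacking choline (CDAA), which gives rise to hepatocellular carcinoma. The study asked how the liver transcriptome differs between the carcinoma-bearing and the healthy rats. The labels state neither the sex of the rats nor whether tumour tissue was separated from the surrounding liver. Only the authors' values for each diet group were available here, so every level is a group value without a spread between rats.

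Cytochrome P450 enzymes are haem proteins of the endoplasmic reticulum that insert an oxygen atom into steroids, fatty acids, retinoids and drugs, with electrons passed on by P450 oxidoreductase and cytochrome b5. The rat Cyp2c subfamily is a tandem family of closely related genes, several of which are transcribed mainly in males or mainly in females. In hepatocytes the male pattern follows the pulses of growth hormone through the transcription factor STAT5b, and the family also depends on the hepatocyte nuclear factors.

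The 250 bases before the RefSeq start site are shown for the neighbouring genes Cyp2c11, Cyp2c24 and LOC100361492, which differed in direction between the diets, and for Cyp2c7. They are from assembly GRCr8, all on the plus strand of chromosome 1, at chr1:246174966-246175215, chr1:246286091-246286340, chr1:246421533-246421782 and chr1:247966144-247966393 in that order. RefSeq names LOC100361492 Cyp2c55. Capitals mark the letters TATAAA (the TATA box) and ATCAAT (a core of sites of the hepatocyte factor HNF6), the latter also as its reverse complement.
Cyp2c11: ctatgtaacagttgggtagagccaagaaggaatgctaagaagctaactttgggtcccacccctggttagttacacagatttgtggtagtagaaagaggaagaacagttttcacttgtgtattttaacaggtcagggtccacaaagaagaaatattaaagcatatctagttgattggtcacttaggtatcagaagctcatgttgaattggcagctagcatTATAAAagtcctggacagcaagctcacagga
Cyp2c24: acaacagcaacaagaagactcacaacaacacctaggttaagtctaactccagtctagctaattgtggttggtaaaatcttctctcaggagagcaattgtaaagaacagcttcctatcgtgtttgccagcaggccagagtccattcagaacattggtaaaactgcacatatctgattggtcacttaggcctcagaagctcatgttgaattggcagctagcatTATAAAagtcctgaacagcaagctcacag
LOC100361492: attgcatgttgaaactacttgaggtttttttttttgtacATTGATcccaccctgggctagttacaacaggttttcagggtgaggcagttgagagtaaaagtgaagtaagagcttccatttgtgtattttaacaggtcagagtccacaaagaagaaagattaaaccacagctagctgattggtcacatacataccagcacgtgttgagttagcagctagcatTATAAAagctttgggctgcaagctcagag
Cyp2c7: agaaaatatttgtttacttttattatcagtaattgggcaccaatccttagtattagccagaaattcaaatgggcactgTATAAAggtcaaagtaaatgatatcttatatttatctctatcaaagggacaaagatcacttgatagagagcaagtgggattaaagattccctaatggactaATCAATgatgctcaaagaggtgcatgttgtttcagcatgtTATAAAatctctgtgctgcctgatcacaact
In each of the 4 windows TATAAA lay 31 to 24 bases before the start site, against 12.9% of all 33469 RefSeq promoter windows of this length that hold it anywhere on either strand; Cyp2c7 held it again at -172 to -167. The Cyp2c11 window was 76.7% identical to that of LOC100361492 over 236 aligned bases and 68.6% identical to that of Cyp2c24 over 242. Cyp2c11 and Cyp2c24 shared an unbroken run of 45 identical bases around the TATA box, from -63 to -19 in Cyp2c11 and from -61 to -17 in Cyp2c24. The windows of Cyp2c24 and LOC100361492 were 61.6% identical, and that of Cyp2c7 was 61.0% identical to that of Cyp2c11. So Cyp2c11 and Cyp2c24, whose transcripts went in opposite directions, were closer to each other in this window than Cyp2c24 was to LOC100361492, with which it rose. Cyp2c24 and LOC100361492 shared an unbroken run of 19 identical bases, from -40 to -22 in both. The window of Cyp2c23, not shown, was 47.8% (Cyp2c7) to 59.6% (LOC100361492) identical to the 4 windows. All these percentages leave out gap columns. There were 10 gap columns between Cyp2c24 and LOC100361492, 44 between Cyp2c7 and Cyp2c11, and 40 to 64 in the alignments with Cyp2c23. The percentages alone therefore do not rank these pairs against Cyp2c23. ATCAAT was found once in Cyp2c7 (-71 to -66) and once, reversed, in LOC100361492 (-211 to -206), and 7.10% of all windows hold it. The letters TTCNNNGAA (STAT5, 7.67% of all windows), TTGCNNAA (C/EBP, 9.22%) and CAAAGTCCA (HNF4, 0.338%) were in none of these windows on either strand. Of the 6 genes 5 had a RefSeq window, and that of Cyp2c23 held none of the 5 motifs searched.

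In the authors' deposited table the Cyp2c genes moved in both directions between the diets. Cyp2c24 and LOC100361492 rose from near the lower end of the table, while Cyp2c11, Cyp2c7, LOC100361547 and Cyp2c23 fell. Thus 2 of the 6 were higher and 4 lower in CDAA, where 57.1% of all genes in the authors' deposited table were higher and 42.9% lower. All 2462 genes lay under 0.01 after the correction for multiple tests in each of the authors' 3 programs (DESeq2, edgeR and Cufflinks), so membership of the table is not itself a result about these genes. All 6 changed at least 2-fold, the 2 risers where 50.2% of the table rose that far, the 4 fallers where 24.9% fell that far, and 75.1% did either. Since the members were picked for their change, nothing is read from these counts. In RNA of liver tissue, fewer cells of a type and less RNA per cell cannot be told apart.

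Cyp2c11, the P450 that marks the adult male rat liver and hydroxylates testosterone, was the most abundant of the 6 in CSAA. The authors' deposited table gives it a CSAA level of 1087 FPKM, that is sequenced fragments adjusted for transcript length and sequencing depth, and a CDAA level of 39.4 FPKM. The log2 fold change of CDAA over CSAA was -4.31 ± 0.45 (standard error, SE, of the authors' DESeq2 model) in the authors' deposited table, or 19.8-fold lower with a 95% interval of 10.8 to 36.2 from that SE. Its adjusted p with DESeq2 was 3.52e-20 in the authors' deposited table. Cyp2c11 ranked 31 of 2462 by CSAA level and 424 by CDAA level in the authors' deposited table.

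Cyp2c7, a paralog higher in female than in male rats that oxidises retinoic acid, had a level of 506 FPKM on CSAA and of 13.2 FPKM on CDAA, per the authors' deposited table. Its DESeq2 log2 fold change was -4.30 ± 0.57 (SE; adjusted p = 9.13e-13) in the authors' deposited table, or 19.7-fold lower with an interval of 9.16 to 42.5. The male-predominant and the female-predominant paralog therefore had falls whose intervals overlapped almost wholly. The SE of Cyp2c7 was the largest of the 6 and exceeded that of 97.9% of the genes in the authors' deposited table. LOC100361547, described there as similar to Cyp2c7 and named Cyp2c7l1 by RefSeq, was at 3.57 FPKM on CSAA and 0.158 FPKM on CDAA, per the authors' deposited table. Its DESeq2 log2 fold change was -4.003 ± 0.43 (SE; adjusted p = 7.62e-19) in the authors' deposited table, or 16.0-fold lower with an interval of 8.95 to 28.7. In FPKM it stood 142 times below Cyp2c7 in CSAA and 83.3 times below it in CDAA, from the group values of the authors' deposited table. The CDAA level of LOC100361547 ranked 2449 of 2462, so the size of its fall rests on a low level. How the authors assigned reads that match several such copies is not stated, so the values of Cyp2c7 and LOC100361547 singly are uncertain. The mean count per unit of FPKM was 75.9 for LOC100361547 and 20.4 to 28.8 for the other 5 genes, computed from the authors' deposited table, so its counts and its FPKM were in another proportion than those of its paralogs.

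Cyp2c23, which converts arachidonic acid to epoxides, fell least. Its level was 460.1 FPKM on CSAA and 182 FPKM on CDAA, per the authors' deposited table. The DESeq2 log2 fold change was -1.31 ± 0.25 (SE; adjusted p = 1.68e-06) in the authors' deposited table, or 2.47-fold lower with an interval of 1.76 to 3.47. That interval lay wholly below those of the other 3 falling genes, a comparison of intervals and not a test of the difference. Cyp2c23 held rank 86 of 2462 by level in both diets in the authors' deposited table.

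Cyp2c24, a further P450 of the subfamily, had the largest DESeq2 rise of all 2462 genes in the authors' deposited table. Its level was 0.113 FPKM on CSAA and 34.1 FPKM on CDAA, per the authors' deposited table. The DESeq2 log2 fold change was 7.31 ± 0.43 (SE; adjusted p = 1.95e-62) in the authors' deposited table, or 159-fold higher with an interval of 89.1 to 284. LOC100361492, described there as similar to Cyp2c55, had the next largest DESeq2 rise, with 0.290 FPKM on CSAA and 77.2 FPKM on CDAA, per the authors' deposited table. Mouse Cyp2c55 is known for its expression in the colon and for oxidising arachidonic acid. The DESeq2 log2 fold change of LOC100361492 was 7.11 ± 0.44 (SE, adjusted p = 7.39e-55) in the authors' deposited table, or 138-fold higher with an interval of 75.8 to 253. The group FPKM of Cyp2c24 and LOC100361492 differed 300.4-fold and 266-fold, above the interval of each. Those intervals reflect the SE of the DESeq2 model only and leave out the difference between programs. The intervals of this pair overlapped, and the FPKM of LOC100361492 was 2.55 times that of Cyp2c24 in CSAA and 2.26 times in CDAA, from the authors' deposited table. RefSeq gives the synonym CYPIIC24 to Cyp2c55, so the older name does not tell this pair apart. Dividing the mean normalised count in proportion to the group FPKM of the authors' deposited table put Cyp2c24 at about 3.27 counts per rat in CSAA and 982 in CDAA. The same division of the authors' deposited table put LOC100361492 at 5.90 and 1571 counts. At so few counts in CSAA the size of each fold rests on the CSAA level, while the CDAA level of each rests on many reads.

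**Figure D1:**
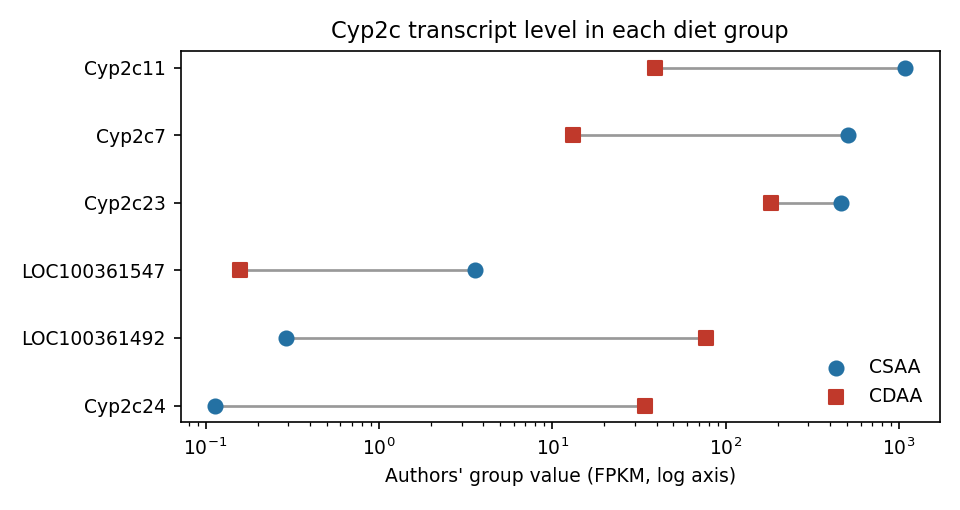
Level of each Cyp2c gene as the authors' value for the diet group, in FPKM on a log axis; circles are CSAA, squares are CDAA, and a line joins the values of a gene. Cyp2c24 and LOC100361492 go from 0.113 and 0.290 to 34.1 and 77.2 FPKM, and the other 4 genes go down.

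The order of the genes by level differed between the diets. In CSAA the order was Cyp2c11, Cyp2c7, Cyp2c23, LOC100361547, LOC100361492 and Cyp2c24 in the authors' deposited table, over a 9581-fold range of FPKM. In CDAA it was Cyp2c23, LOC100361492, Cyp2c11, Cyp2c24, Cyp2c7 and LOC100361547 in the authors' deposited table, over a 1148-fold range. Without a spread between rats, close neighbours in these orders cannot be told apart: Cyp2c7 was 1.10 times Cyp2c23 in CSAA and Cyp2c11 was 1.16 times Cyp2c24 in CDAA, from the FPKM of the authors' deposited table. LOC100361492 stood 3751 times below Cyp2c11 in CSAA and 1.96 times above it in CDAA, again in FPKM of the authors' deposited table.

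Per the authors' deposited table, the levels of the 6 genes summed to 2057 FPKM on CSAA and 346 FPKM on CDAA, a total 5.95 times lower in CDAA. The risers added 111 FPKM and the fallers lost 1822 FPKM, computed from the authors' deposited table, so the gain came to 6.08% of the loss. The pair of risers made up 0.0196% of the sum in CSAA and 32.2% in CDAA, computed from the authors' deposited table. Cyp2c11 went from 52.8% to 11.4% of the sum, Cyp2c7 from 24.6% to 3.81% and Cyp2c23 from 22.4% to 52.6%, also from the authors' deposited table. Among these 6 genes the shares thus shifted between paralogs while their sum was lower; the levels of Cyp2c genes outside the table are not part of these sums.

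**Figure D2:**
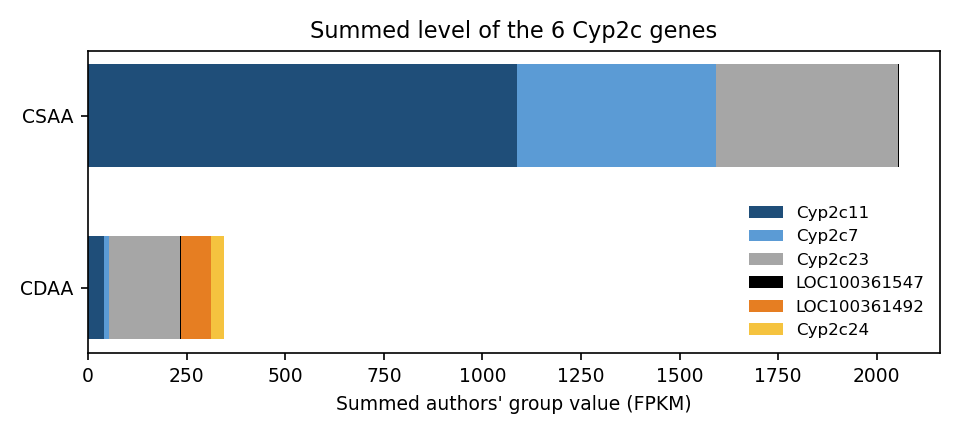
Summed level of the 6 Cyp2c genes in each diet group, in FPKM of the authors' group values; each colour is a gene. The bar is 2057 FPKM long in CSAA, mostly Cyp2c11, Cyp2c7 and Cyp2c23, and 346 FPKM long in CDAA, with LOC100361492 and Cyp2c24 at 32.2% of it.

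The direction of every member was the same in the authors' 3 programs, and the sizes differed for some. DESeq2 and edgeR gave the same sign in all 2462 genes of the authors' deposited table. The DESeq2 sign was that of the group FPKM in 2457, so the shared direction is not particular to the members. For Cyp2c7 the log2 fold change in the authors' deposited table was -5.29 with edgeR and -5.26 with Cufflinks, which as unlogged folds (39.0 and 38.4) are 1.98 and 1.94 times the 19.7-fold of DESeq2. For Cyp2c24 the edgeR and Cufflinks values in the authors' deposited table were 8.11 and 8.23, and for LOC100361492 they were 7.93 and 8.06. As unlogged folds these are 277 and 300.4 against 159 for Cyp2c24, and 245 and 266 against 138 for LOC100361492, each over 1.5 times the DESeq2 fold of the authors' deposited table. Cyp2c11 (-4.82 and -4.79), LOC100361547 (-4.42 and -4.49) and Cyp2c23 (-1.36 and -1.34) stayed within 1.5 times of the unlogged DESeq2 fold in the authors' deposited table. Of all 2462 genes, 58 differed by over 1.5 times in unlogged fold between DESeq2 and edgeR in the authors' deposited table.

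**Figure D3:**
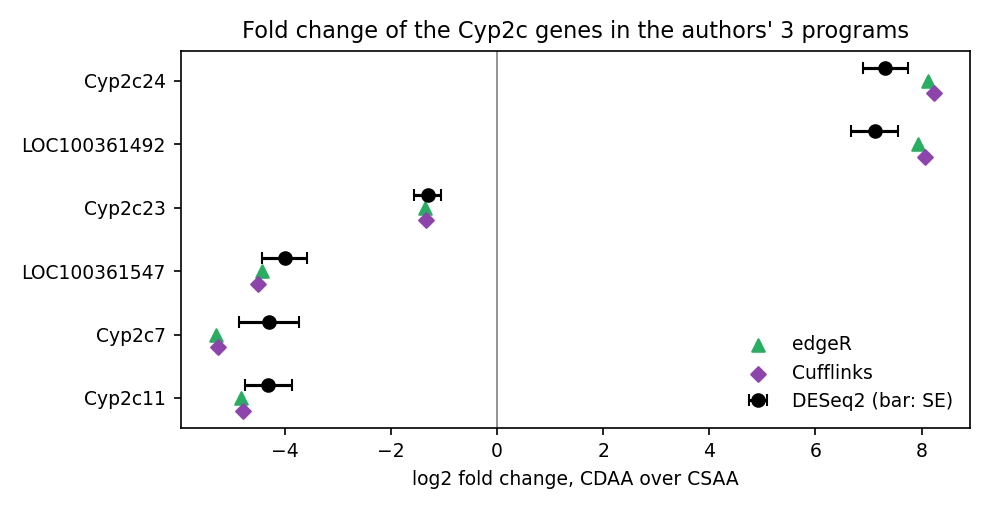
Log2 fold change of CDAA over CSAA for each Cyp2c gene from the authors' DESeq2 (circle, bar is the SE), edgeR (triangle) and Cufflinks (diamond) columns. All 3 symbols of a gene lie on the same side of 0, and for Cyp2c11, Cyp2c7, LOC100361492 and Cyp2c24 both edgeR and Cufflinks lie farther from 0 than the SE of DESeq2 reaches.

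All 6 loci lie on chromosome 1. In build rn6, which the authors used, the authors' deposited table placed Cyp2c11 (ENSRNOG00000052810) at 257970344 to 258004434, Cyp2c24 (ENSRNOG00000013241) at 258074859 to 258139176 and LOC100361492 (ENSRNOG00000001466) at 258210343 to 258252448. The gaps between these loci were 70.4 and 71.2 kb in the authors' deposited table, with no other listed gene between them. A gene that fell 19.8-fold was thus next to a pair that rose 159-fold and 138-fold with DESeq2, or 300.4-fold and 266-fold with Cufflinks, in the authors' deposited table. Cyp2c23 (ENSRNOG00000013291) lay farther along the chromosome, from 263778515 to 263803150, and Cyp2c7 (ENSRNOG00000021405) and LOC100361547 (ENSRNOG00000054181) at 148053686 to 148119857 and 148240503 to 148287217 in the authors' deposited table. In rn6 the latter pair was 109683 kb away from Cyp2c11 in the authors' deposited table.

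The order differed in the newer assembly. In the RefSeq annotation of GRCr8, Cyp2c7 and LOC100361547 (there Cyp2c7l1) follow Cyp2c11, Cyp2c24 and Cyp2c55 in the same run of Cyp2c genes. From Cyp2c11 to Cyp2c23 RefSeq names 17 Cyp2c genes, of which 11 are protein-coding and 6 are pseudogenes. The 6 listed genes took places 1, 2, 3, 9, 13 and 17, so the risers were neighbours at places 2 and 3. The protein-coding genes Cyp2c66, Cyp2c6v1, Cyp2c12, Cyp2c13 and Cyp2c22 were not in the authors' deposited table, which does not show that they were unchanged. Cyp2c23 was set apart from Cyp2c22 by 51 other protein-coding genes in GRCr8.

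**Figure D4:**
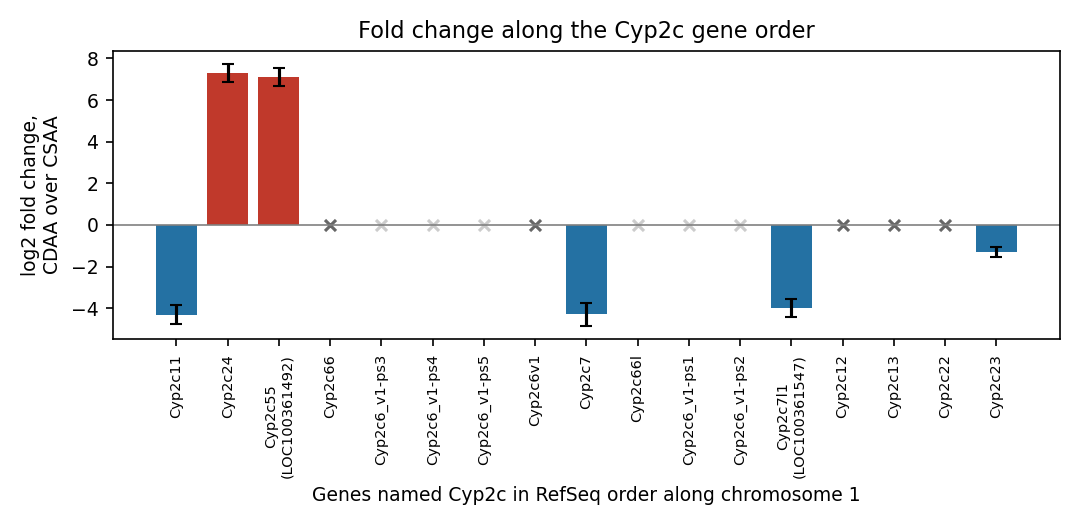
DESeq2 log2 fold change of CDAA over CSAA (bar, with SE) for the 17 genes named Cyp2c in their RefSeq GRCr8 order along chromosome 1, from Cyp2c11 to Cyp2c23. Crosses mark genes that are not in the authors' table (dark, protein-coding; light, pseudogene); the risers hold places 2 and 3, next to Cyp2c11.

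Among the 28 P450 genes of the authors' deposited table, the Cyp2c genes stood at both ends. The other 22 had log2 fold changes from -2.49 to 3.37 in the authors' deposited table, with a median of -0.94. Of these 5 were higher and 17 lower, against 57.1% and 42.9% of all its genes. Of the 6 Cyp2c genes 5 were beyond 4 in either direction, as were 66 of all 2462 genes, 53 above 4 and 13 below -4, in the authors' deposited table. The members had been picked for such values. From the list of other Cyp2 genes 9 of 33 were in the authors' deposited table, 7 lower and 2 higher, with a median of -1.03; the median over all genes of the authors' deposited table was 1.01. Cyp2f4 (-1.73 ± 0.18, SE) and Cyp2a1, a female-predominant steroid hydroxylase (-1.62 ± 0.26), fell in the authors' deposited table. The 4 Cyp2d genes in the table, of the subfamily that includes the debrisoquine hydroxylases, were lower too, with Cyp2d4 at -1.58 ± 0.33 (SE), Cyp2d1 at -1.05 ± 0.22, Cyp2d2 at -1.03 ± 0.26 and Cyp2d5 at -0.81 ± 0.16 in the authors' deposited table. Cyp2j10 was at -0.89 ± 0.25 (SE) in the authors' deposited table. The phenobarbital-inducible genes Cyp2b1 (2.33 ± 0.40, SE) and Cyp2b2 (1.75 ± 0.35) rose in the authors' deposited table, to 4.19 and 6.95 FPKM, below the 34.1 FPKM of Cyp2c24.

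**Figure D5:**
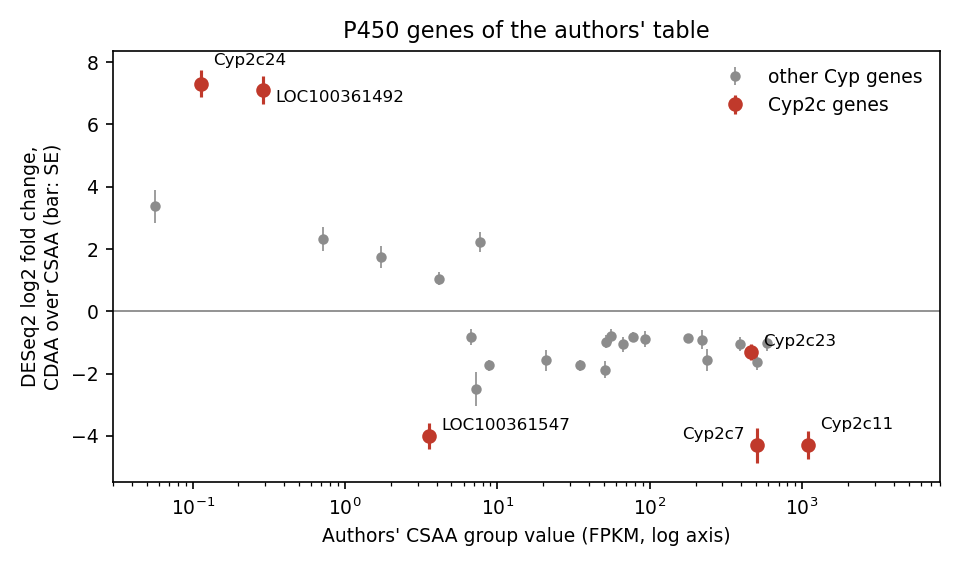
DESeq2 log2 fold change of CDAA over CSAA (bar, SE) against the CSAA group value in FPKM (log axis) for the 28 P450 genes of the authors' table. The 22 other P450 genes (grey) lie between -2.49 and 3.37, and 5 of the 6 Cyp2c genes (red) lie beyond 4 in either direction.

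Of 2 lists of sex-biased rat liver genes, the members found in the authors' deposited table, 4 male-biased and 3 female-biased beside Cyp2c11 and Cyp2c7, were lower; the other 14 genes have no value here. Beside Cyp2c11, the authors' deposited table held 4 of 10 male-biased genes, all of which fell, with a median log2 fold change of -1.88, against 42.9% of all its genes. They were the urinary protein gene Mup5 (-3.59 ± 0.61, SE), the estrogen sulfotransferase ste2 (-2.43 ± 0.34), the anion transporter Slco1a1 (-1.33 ± 0.22) and Cyp3a18 (-0.91 ± 0.30) in the authors' deposited table. The Cufflinks locus of Mup5 is shared with other urinary protein genes in the authors' deposited table. Beside Cyp2c7, 3 of 11 female-biased genes were in the authors' deposited table and fell, against 42.9% of all its genes, with a median of -2.26. These were Cyp3a9 (-2.49 ± 0.55, SE), the steroid reductase gene Srd5a1 (-2.26 ± 0.42) and Cyp2a1. Cyp2c12 and Cyp2c13, P450 genes with female-specific and male-specific expression, were absent from the authors' deposited table. From a list of the growth hormone pathway (15 genes), the authors' deposited table held 3, all lower, against 42.9% of all its genes. Their median was -0.99, and they were the receptor gene Ghr (-0.99 ± 0.23, SE), Stat5b (-0.93 ± 0.11) and the repressor gene Bcl6 (-1.70 ± 0.42). With 3 genes in each of these groups, little can be read from such counts.

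From the list of hepatocyte factors and xenobiotic receptors (28 genes), the authors' deposited table held 9, each of them lower, with a median of -1.12, where 42.9% of all its genes were lower; 5 of the 9 fell at least 2-fold. Nr1h4, the bile acid receptor FXR (-1.48 ± 0.14, SE), and the retinoid receptor genes Rxrg (-1.67 ± 0.29) and Rarb (-1.42 ± 0.34) had the largest falls in the authors' deposited table. The hepatocyte factor genes Hnf4a, Foxa2, Prox1 and Nr5a2 and the common partner gene Rxra were 5 of the others, at -1.12 to -0.71 in the authors' deposited table. The genes of CAR and PXR, the receptors through which many drugs induce Cyp2c and Cyp2b genes, were absent from the authors' deposited table. From the list for electron transfer to P450 and for haem (18 genes), the authors' deposited table held 6, 5 lower and 1 higher, with a median of -1.26, where 42.9% of all its genes were lower and 57.1% higher. The cytochrome b5 reductase gene Cyb5r3 (-1.51 ± 0.24, SE) and Cyb5b, the gene of cytochrome b5 type B (-1.31 ± 0.17), fell in the authors' deposited table. The haem synthesis genes Ppox (-1.50 ± 0.18, SE) and Alad (-1.21 ± 0.21) and Pgrmc2 (-1.02 ± 0.22) fell too in the authors' deposited table. There the haem oxygenase gene Hmox1 rose (1.04 ± 0.24, SE). The P450 oxidoreductase gene Por was not in the authors' deposited table.

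The listed genes of the substrates' own pathways went both ways, as did the whole of the authors' deposited table, with 57.1% higher and 42.9% lower. In the arachidonic acid list, beside Cyp2c23, 6 of 25 genes were in the authors' deposited table, 3 higher and 3 lower, with a median of 0.14. The leukotriene synthase gene Ltc4s (2.27 ± 0.41, SE), the phospholipase gene Pla2g4a (1.15 ± 0.27) and the epoxide hydrolase gene Ephx1 (1.14 ± 0.23) rose, and Cyp4f4 (-0.98 ± 0.21), Cyp2j10 (-0.89 ± 0.25) and Cyp4f1 (-0.87 ± 0.11) fell in the authors' deposited table. In the retinoid list, beside Cyp2c7, 7 of 24 were in the authors' deposited table, 4 higher and 3 lower, with a median of 2.04. The retinal dehydrogenase genes Aldh1a2 (2.79 ± 0.43, SE) and Aldh1a3 (2.04 ± 0.28), the related aldehyde dehydrogenase gene Aldh1a7 (2.18 ± 0.43) and the retinol dehydrogenase gene Dhrs9 (2.59 ± 0.51) rose in the authors' deposited table. Rarb, Rdh10 (-0.95 ± 0.12, SE) and Rdh11 (-0.93 ± 0.28) fell in the authors' deposited table.

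The genes nearest to each member were sought by distance in the log2 FPKM of the diet groups, which is over 2 group values only. Nearest to Cyp2c24 were the unnamed transcript AC130970.1 (distance 0.87), the metalloproteinase gene Mmp27 (1.67) and LOC100361492 (1.79), from the authors' deposited table. Nearest to LOC100361492 were Cyp2c24, the glutathione peroxidase gene Gpx2 (1.99) and the heat shock gene Cryab (2.11), from the authors' deposited table. Cyp2c11 was nearest to Mup5, LOC100912565 and LOC259244, urinary protein genes that share a locus and so a level in the authors' deposited table (0.98 each). Nearest to Cyp2c7 were Rn50_5_0814.6 (0.84), RGD1307603 (0.91) and Ighm (1.11), and nearest to LOC100361547 were Fam129c (0.50), Igfn1 (0.59) and Trim36 (0.73), from the authors' deposited table. Cyp2c23 was close to Serpina6, Cd81 and Gbe1, at distances of 0.079, 0.13 and 0.15 from the authors' deposited table.

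The listed markers of liver cell types went both ways between the diets, as did the genes of the authors' deposited table as a whole. Of all its genes, 57.1% were higher and 42.9% lower in CDAA. Of 7 hepatocyte markers 2 were in the authors' deposited table, Ttr (-1.08 ± 0.13, SE) and Hnf4a (-0.76 ± 0.19), and their summed level went from 13622 to 6466 FPKM. Most of that sum was Ttr, at 13443 FPKM in CSAA and 6364 FPKM in CDAA. Alb and Apoa1 were among those not listed. Of 6 bile duct markers the authors' deposited table held 5, which rose, from Epcam (1.85 ± 0.23, SE) to Cftr (5.003 ± 0.39), and their sum went from 9.85 to 62.9 FPKM. All 4 listed stellate cell markers of 6, both listed macrophage markers of 5 and both listed lymphocyte markers of 6 rose in the authors' deposited table, with sums of 9.06 to 30.9, 7.99 to 21.8 and 4.71 to 14.2 FPKM. Of 5 endothelial markers Vwf rose (1.15 ± 0.27, SE) and Kdr fell (-0.96 ± 0.11) in the authors' deposited table, with a sum of 27.2 to 20.0 FPKM. With 2 to 5 listed genes per cell type, little can be read from the counts of markers that rose or fell. Per the authors' deposited table, no listed marker was at 0 in either diet. The part of these markers' cell types in the Cyp2c values was not tested.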

How the data were processed

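Liver RNA of 8 rats, 4 per diet, was sequenced; per the labels' protocols, Trizol extracts were made into Illumina TruSeq libraries. The submitters' processing notes name the authors' tools as FastQC, TopHat2, Cufflinks, DESeq2 and edgeR, and the build as rn6, without versions, read counter, annotation or strand setting. The only file is the authors' comparison of the diets. Its DESeq2 columns, per the file headers, are the authors' mean normalised count (a signal), log2 fold change with standard error, Wald score and p-values. Its edgeR columns, per the file headers, are the authors' log2 fold change, mean log2 of CPM, p-value and false discovery rate. Its Cufflinks columns, per the file headers, are the authors' level of each diet group, log2 ratio, test score, p-value and q-value. The authors' group levels are taken as FPKM, which Cufflinks writes there, although no header names the unit; replicates were pooled. The authors' Cufflinks log2 ratio equals log2 of CDAA over CSAA within 1.20e-05 in 2440 genes, and the sign of the authors' DESeq2 value was that of CDAA over CSAA in 2457 of 2462.

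The main value was the authors' DESeq2 log2 fold change; the authors' edgeR and Cufflinks values, a minimum change of 2-fold and minimum levels of 1 and 5 FPKM were tried as alternatives. Intervals are 1.96 SE either way. Selection at 0.01 in all 3 programs tends to overstate small effects. Mean count and mean CPM put a typical normalised library at about 14100000 reads. The members and the 8 gene lists were chosen with earlier results of these data known, and the motif TATAAA was added after the sequences were seen. Named genes were the members, every other Cyp2 gene, listed genes within 1 Mb of a member, the 4 most changed of each list plus as many as 2 that went the other way, and the 3 nearest genes by log2 FPKM; further list members were named after their values were seen. Symbols were matched through RefSeq GRCr8, which recognised 2355 of 2462. Promoter windows were aligned globally with Biopython 1.88; Python 3.11.15, numpy 2.4.6, matplotlib 3.10.9, pandas 2.3.3 and scipy 1.17.1 were used. No test was computed. A planned comparison of protein sequences, a planned motif and a member of a gene list are not reported here.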

Additional observations from a re-analysis of the deposited data

How the results depend on the processing

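The direction of all 6 Cyp2c genes held with the authors' edgeR and Cufflinks columns, each past the 0.05 threshold in every program. Passing that threshold was fixed by the selection of listed genes at 0.01 in all 3 programs. DESeq2 and edgeR also gave the same sign in all 2462 genes, so neither is particular to these 6. Of the 80 list counts recomputed under the alternatives, 75 stayed within 1.5 times. These counts include the members where a list holds them. Under a 2-fold minimum the growth hormone list kept 1 falling gene and the hepatocyte factors kept 5. The arachidonic acid list kept 1, the member Cyp2c23 itself, and the retinoid list kept 2, the member Cyp2c7 and Rarb. Under a minimum of 5 FPKM the retinoid list kept 1 riser. The share of the risers was the same with the sum taken over all genes named Cyp2c, since these are the same 6 genes. No paired analysis was possible because the data used here are group comparisons without values of single rats; for the same reason no rat could be left out. The CSAA levels of Cyp2c24 and LOC100361492 rest on about 3.27 and 5.90 counts per rat, which limits the precision of their folds. The CDAA level of LOC100361547 rests on about 12.0 counts per rat, which limits that of its fall.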

Other observations

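Unnamed transcripts lay near Cyp2c7 and LOC100361547 in rn6, on chromosome 1. AABR07004549.1 (ENSRNOG00000059330), at 147422778 to 147435897 and 618 kb from Cyp2c7, went from 207 to 5.45 FPKM, a DESeq2 log2 fold change of -4.06 ± 0.61 (SE) in the authors' deposited table. AABR07004572.1 (147696655 to 147700221) went from 1.99 FPKM to a listed 0 in the authors' deposited table. AABR07004530.1 (147156908 to 147158367) had levels of 2.29 FPKM on CSAA and 0.267 FPKM on CDAA (-2.62 ± 0.53, SE), per the authors' deposited table. The file gives these transcripts no description. All 3 were lower in CDAA, as were Cyp2c7 and LOC100361547, where 42.9% of all genes in the authors' deposited table were lower.

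Within 1 Mb of Cyp2c11, Cyp2c24 and LOC100361492 the only other listed gene was Plce1, a phospholipase gene 504 kb from Cyp2c11, at 0.84 ± 0.21 (SE) in the authors' deposited table. Around Cyp2c23 the desaturase gene Scd was at -2.15 ± 0.45 (SE), Sema4g at -0.83 ± 0.12, the transaminase gene Got1 at -0.70 ± 0.14 and Sfxn3 at 1.20 ± 0.25 in the authors' deposited table.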
